A study of Saccharomyces cerevisiae
Saccharomyces paradoxus with 24 samples.

Results

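The HIS4 promoter window is a stretch of 301 bp on chromosome III that was bound by Rap1 in the budding yeast Saccharomyces cerevisiae. It was taken from the deposited table by its position upstream of HIS4 and is 1 of 1118 windows, each set around the summit of a Rap1 ChIP-seq peak. In the modified sacCer3 numbering of the table it runs from 68398 to 68698 with its summit at 68548. By the R64 annotation, HIS4 (YCL030C) lies on the Crick strand from 65934 to 68333, so that the summit stood 215 bp before the start of the coding sequence and the nearest edge of the window 65 bp before it. Of the window, 201 bp lay between genes and 100 bp lay inside the end of the coding sequence of BIK1 (YCL029C), which encodes a microtubule-associated protein and is transcribed towards HIS4. The space between both coding sequences is 265 bp long, and the summit lay in it, 51 bp from the end of BIK1.

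HIS4 encodes a multifunctional enzyme that catalyses several steps of histidine synthesis. Its promoter is a well-studied target of Rap1, an essential DNA-binding protein that also acts at the promoters of ribosomal protein and glycolytic genes, at telomeres and at the silencers and promoters of the mating-type loci. At HIS4 Rap1 is known to keep nucleosomes from covering the sites of the activators Gcn4, Bas1 and Pho2, and it activates little there on its own. Anchor-away removes such a protein from the nucleus: rapamycin joins an FRB tag on the protein to an FKBP12 tag on a ribosomal protein, which leaves with the maturing ribosome.

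ChIP-seq with an antibody to a V5 tag on Rap1 was run with 2 libraries at each time. The times were 0, 5, 10, 15, 20, 30, 45 and 60 min of 7.5 µM rapamycin. The input chromatin used here was that of 0 min. The cells at 0 min had DMSO for 60 min in place of rapamycin. Replicates 1 and 2 are the strain isolates JRy15237 and JRy15238, so that the spread given below is that between 2 isolates. A no-tag control and sir4 mutant cells belong to the same series and were not analysed here. All groups analysed here carried Rap1(134)-FRB_2xV5, RPL13A-2xFKBP12::TRP1 as the anchor, and both fpr1::NAT and TOR1(S1972I), which serve to make growth insensitive to rapamycin. They also shared bar1delta::k.l.URA3, hmrdelta::HygMX, an HML with marked sequence (hmlalphadelta::UniqueHMLwithSNPs) and the alleles can1-100, his3-11,15 and leu2-3,112, with lys2, trp1-1 and ura3. The labels list no change at HIS4. Cells grew in rich medium (YPD), and HIS4 RNA was not measured.

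V5-tagged S. paradoxus cells that had seen no rapamycin were added at 5% by optical density. The Rap1 signal is the number of S. cerevisiae reads in a window per 1000000 S. paradoxus reads of the same library. In the 16 ChIP libraries these spike-in reads numbered 4397759 to 9219038, with a median of 7029824. The inputs held 800923 in replicate 1 and 388272 in replicate 2. Replicate 2 lay above replicate 1 at HIS4 by 0.33 on the log2 scale at 0 min and by 0.82 at 60 min, and over all windows by a median of 0.55 and 0.51. The inputs of 0 min differed in the same direction, with a median window of 189 in replicate 1 and 404 in replicate 2.

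Relative to S. paradoxus reads, the Rap1 signal at the HIS4 promoter fell to 4.78% of its 0 min value by 60 min. The signal was 386 and 486 at 0 min in replicates 1 and 2, 339 and 383 at 5 min, 151 and 172 at 10 min, and 45.5 and 53.8 at 15 min. It was 30.7 and 30.0 at 20 min, 25.0 and 33.3 at 30 min, 25.1 and 22.3 at 45 min, and 15.1 and 27.4 at 60 min. Both values at 5 min lay just below those at 0 min, and every value at 10 and 15 min lay below every value of the times before it. From 20 min on, the 2 values of each time overlapped the range of the next. Behind them stood 2827 and 2461 reads at 0 min and 136 and 175 reads at 60 min, so that the exact Poisson intervals of the last time ran from 12.6 to 17.8 and from 23.5 to 31.8. These intervals cover counting error only, and they did not overlap between the replicates at 60 min.

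**Figure D1:**
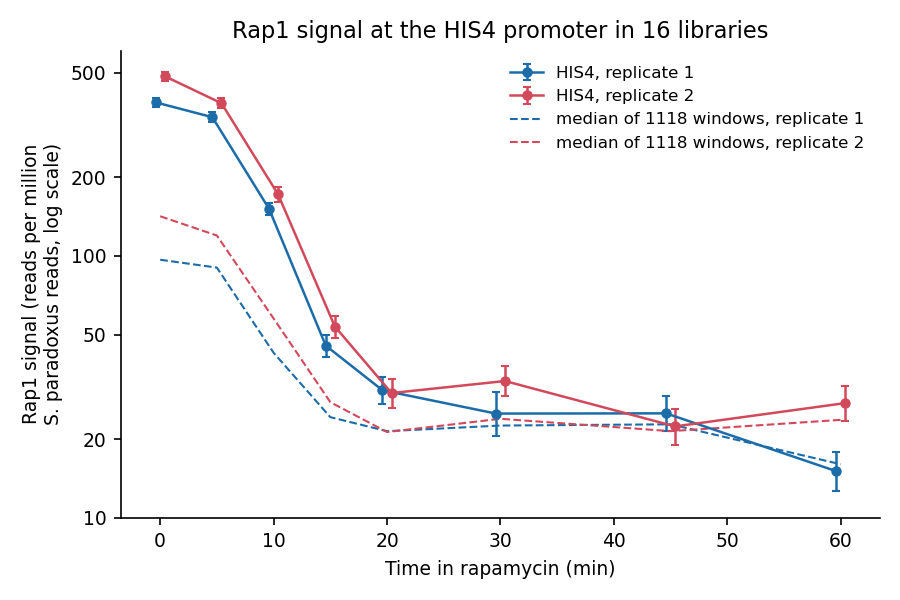
Rap1 signal (reads per 1000000 S. paradoxus reads, log axis) at the HIS4 promoter against time in rapamycin, in 2 replicates with exact Poisson 95% intervals, and the median of all 1118 windows in the same libraries (dashed). HIS4 started at 386 and 486, well above the dashed lines, and met them by 60 min at 15.1 and 27.4.

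As a share of its own 0 min value, the signal was 83.3% ± 6.28 at 5 min, 37.3% ± 2.71 at 10 min, 11.4% ± 0.498 at 15 min and 7.06% ± 1.26 at 20 min (SD, n = 2). It was 6.67% ± 0.265 at 30 min, 5.55% ± 1.34 at 45 min and 4.78% ± 1.23 at 60 min. On the scale of log2(signal + 1), the signal at 60 min fell by 4.34 against 0 min (SE 0.27, limma, adjusted p = 1.87e-54), a call that 96% of all windows shared. Of that fall, 65.4% took place between 5 and 15 min.

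Set against the 0 min cells, HIS4 did not pass the test at 5 min (log2 change -0.26, SE 0.27, limma, adjusted p = 1.00). No window was called there, with 39 windows lower and 0 higher at an unadjusted p under 0.05. At 10 min HIS4 fell by 1.42 (limma, adjusted p = 6.02e-07), and 73.1% of all windows were called lower. At 15 min it fell by 3.11 (limma, adjusted p = 2.70e-28), where 94.3% were called lower. At 20, 30 and 45 min it changed by -3.79, -3.86 and -4.14 (limma, adjusted p of 1.39e-41 at the most), where 94.3%, 94.8% and 95.1% of windows were called lower. The median window changed by -0.11 at 5 min, -1.02 at 10 min, -1.93 at 15 min and -2.40 at 60 min. All windows took the same spread in this fit, so the smallest p-values do not measure replication, and an exact permutation test of 2 against 2 libraries cannot go below p = 0.333.

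Most of the loss at HIS4 came in the steps from 5 to 10 min and from 10 to 15 min. The signal fell by 1.16 on the log2 scale from 5 to 10 min (SE 0.27, limma, adjusted p = 6.63e-05), a step in which 73.3% of windows were called lower and in which HIS4 had the fall of rank 377. It then fell by 1.69 from 10 to 15 min (limma, adjusted p = 1.42e-07), a step in which 80.9% of windows were called lower. There the median window changed by -0.82, and HIS4 had the 5th largest fall of 1118.

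The larger falls in that step belonged to the windows upstream of UBP2, a ubiquitin protease gene (-1.98), upstream of LCL2 (-1.80), between genes on chromosome XVI (positions 575155 to 575455, -1.72) and upstream of PDL32 (-1.70). From 15 to 20 min HIS4 changed by -0.69 (limma, adjusted p = 0.333), and 0 windows were called, with 108 lower at an unadjusted p under 0.05. With the replicate as a block, since the same isolate gave both libraries of a number, this step passed at HIS4 (adjusted p = 0.0398) and 52 windows were called lower. The later steps were -0.07 from 20 to 30 min, where 2.24% of windows were called lower, -0.28 from 30 to 45 min and -0.21 from 45 to 60 min, where 0% were, with 10 and 29 lower at an unadjusted p under 0.05. None of them passed at HIS4.

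**Figure D2:**
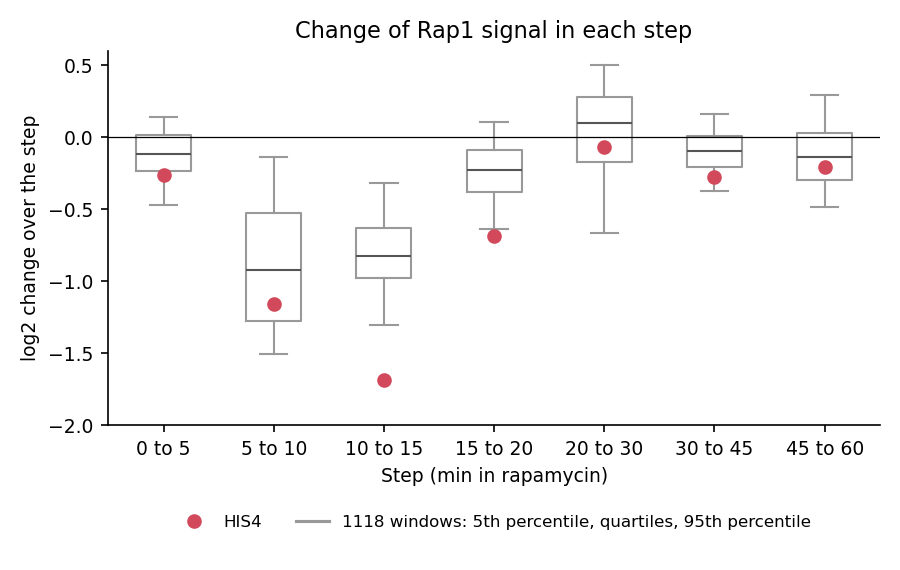
Change of Rap1 signal on the log2(signal + 1) scale between successive times, for HIS4 (point) and for all 1118 windows (box from the 25th to the 75th percentile with the median, whiskers at the 5th and 95th). HIS4 lay at -1.16 in the step from 5 to 10 min, inside the box, and at -1.69 in the step from 10 to 15 min, below the lower whisker.

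Dividing HIS4 by the median window of its own library takes out a shift that a whole library shares, and on this scale the fall was called at 15 min and not at 10 min. HIS4 stood at 3.71 ± 0.399 times the median window at 0 min, 3.48 ± 0.390 at 5 min and 3.26 ± 0.402 at 10 min (SD, n = 2). It then stood at 1.91 ± 0.0491 times at 15 min, 1.42 ± 0.0171 at 20 min, 1.25 ± 0.200 at 30 min, 1.07 ± 0.0415 at 45 min and 1.05 ± 0.154 at 60 min. The replicates of 0, 5 and 10 min overlapped in this ratio, those of 15 min lay below all of them, and by 60 min the signal at HIS4 was level with the median window.

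In limma on these ratios, HIS4 changed by -0.09 at 5 min (SE 0.13, adjusted p = 0.739) and by -0.20 at 10 min (adjusted p = 0.176), with 95% intervals of -0.37 to 0.18 and -0.47 to 0.07. Of all windows, 0.0894% were called lower at 5 min and 26.8% at 10 min. HIS4 fell by 0.97 at 15 min (limma, adjusted p = 6.08e-07), where 26.5% of windows were called lower, and fell by 1.82 at 60 min (limma, adjusted p = 1.24e-11), where 26.7% were. Many others were called higher on this scale: 511, 525 and 486 of 1118 windows at 10, 15 and 60 min. Scaling each library to its total over all windows, in place of S. paradoxus reads, gave a log2 change at 60 min of -3.01 at HIS4 and of -1.08 at the median window, which moved up by 1.32. The share left at HIS4 under that scaling was 12.6%.

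At 0 min the HIS4 promoter was among the stronger windows without being near the top. Its mean signal of 436 ± 70.5 (SD, n = 2) had rank 240 of 1118, and rank 224 and 250 in replicates 1 and 2, where the median window had 119. Among the 226 windows that covered no tRNA gene and had a summit within 300 bp upstream of a coding sequence, it had rank 91. For ChIP over input, each signal was first divided by the median window of its own library, which sets the typical window near 1. This scaled ratio was 3.96 and 2.62 at HIS4, rank 223 by the mean, against a median of 1.03 over all windows.

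The input libraries themselves held 190 and 528 at HIS4, from 152 and 205 reads. The first was 1.01 times the median window of its library and the second 1.31 times. The ChIP signal at 0 min was 3.99 times the median window in replicate 1 and 3.43 times in replicate 2. The lower ratio in replicate 2 thus went with both a higher input value and a lower ChIP value.

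Counted from the lowest share of signal left, HIS4 had rank 222 at 5 min, 361 at 10 min, 27 at 15 min, 11 at 20 min, 6 at 30 min, 6 at 45 min and 10 at 60 min. At 60 min the replicates had ranks 6 and 12, with 3.91% and 5.65% left. The median over all windows was 92.6% at 5 min, 49.2% at 10 min, 25.5% at 15 min and 18.1% at 60 min.

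The 9 windows with less left at 60 min were upstream of UBP2 (3.49%), LCL2 (3.95%), SHE9, which encodes a mitochondrial inner membrane protein (4.21%), YDR109C (4.24%), ALG3, a mannosyltransferase gene of N-glycosylation (4.52%), and MRE11, a nuclease gene of double-strand break repair (4.54%), and between genes on chromosomes XIV (4.43%), XVI (4.57%) and XIII (4.67%). Next above HIS4 came a window inside YOR343W-A and YOR343W-B (5.03%) and a window inside RPL8B (5.07%). The RPL8B window had a 0 min signal of only 2.18. Differences between neighbours in this order were smaller than the distance between the HIS4 replicates.

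Few windows that started as high as HIS4 kept so little. Of the 240 windows with a 0 min signal at or above that of HIS4, itself included, 3 had less left at 60 min, and their median was 31.5%. The 10 windows nearest to it in 0 min signal, 5 on either side, kept 6.18% to 87.4% with a median of 18.1%, and 0 of the 10 kept less than HIS4. Closest were the windows upstream of CIA2, a gene of cytosolic iron-sulfur protein assembly (437 at 0 min, 6.18% left), and upstream of SCP1 and YOR365C (440 at 0 min, 7.52% left). At the other end, the window inside BRP1 kept 87.4% and those upstream of BUD20 and RPL10 and upstream of KTI11 kept 56.3% and 56.7%. The rest were upstream of TSR1 (20.1%) and RPA34, a subunit gene of RNA polymerase I (16.1%), and between genes on chromosomes V (40.3%), VII (15.3%) and X (16.2%).

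**Figure D3:**
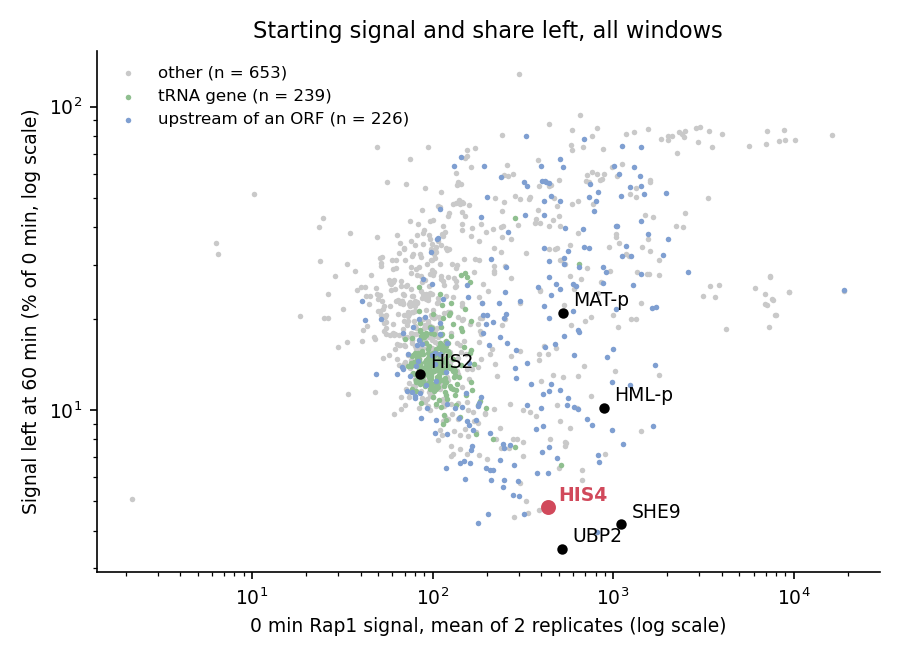
Share of the 0 min Rap1 signal left at 60 min (percent, log axis) against the 0 min signal (log axis, mean of 2 replicates), 1 point for each of 1118 windows, coloured by class. HIS4 (436, 4.78%) lay at the lower edge, with UBP2 and SHE9 below it and MAT-p (20.9%) and HML-p (10.2%) above it.

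Fitted with a single exponential towards a plateau, HIS4 had a residence time of 10.1 min in replicate 1 and 9.20 min in replicate 2. Their geometric mean was 9.64 min (95% interval 6.34 to 14.7 min, from the standard errors of the fits). The residence time is the inverse of the fitted rate of loss. This put it at rank 529 of the 1016 windows whose rate passed in both replicates, close to their median of 9.50 min. The study left peaks on tRNA genes and Ty elements out of its residence times, and no window was left out here on that ground. Among passing windows upstream of a coding sequence that covered no tRNA gene, HIS4 had rank 60 of 212, where the median was 13.3 min. In the order of all 1016, the windows just before HIS4 were inside ALD6 and between genes on chromosome XIV. Just after it came windows inside CDC19 and upstream of COQ6, and the COQ6 window also covered a tRNA gene. HIS4 kept 4.78% of its signal at 60 min, against 20.6%, 13.9%, 37.6% and 13.9% at these neighbours.

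The rank by residence time and the rank by share left thus lay far apart, and the measured points left the fitted curve in the same direction in both replicates. The measured share at 5 min was above the curve by 21.4 and 16.6 percentage points in replicates 1 and 2, and at 15 min the difference was -13.0 and -10.7. At 20 min it was -7.28 and -6.94, and at 60 min 3.34 and 4.35. The fitted plateaus were 0.279% and 1.14%, below every measured share.

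With the plateau fixed at 0 the residence time was 9.78 min and the rank 68 of 1099, and without the 0 min samples it was 5.02 min and the rank 596 of 967. A measure with no curve, the time at which the line between measured points crossed 50% of the 0 min value, was 8.49 and 7.84 min at HIS4. By its mean of 8.17 min HIS4 had rank 343 of the 1007 windows that crossed 50% in both replicates, where the median was 9.21 min. Among the windows with at least its 0 min signal it had rank 3 of 168, with a median of 15.0 min.

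**Figure D4:**
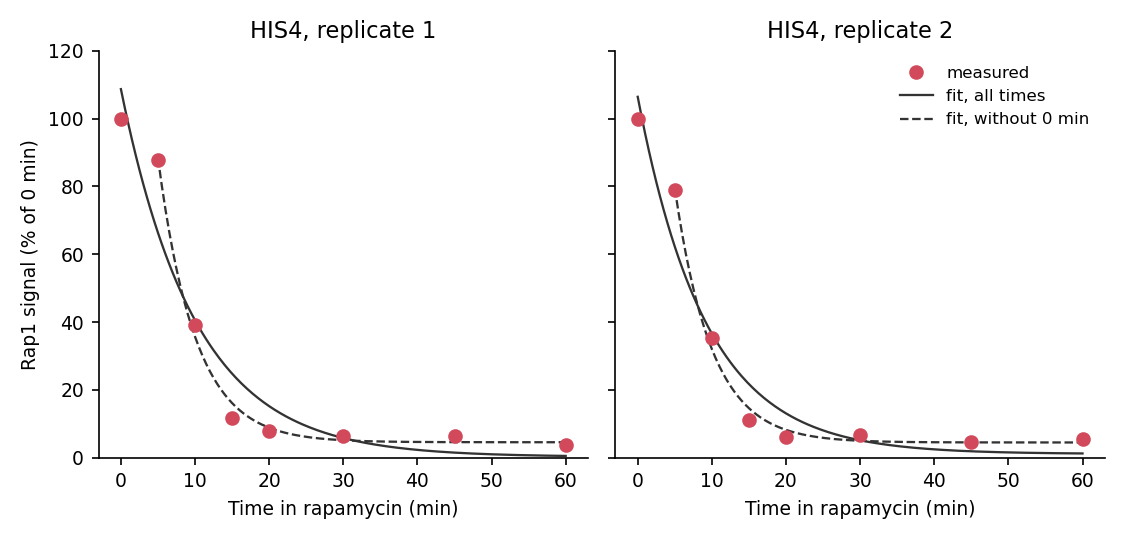
Measured Rap1 signal at HIS4 (points, percent of 0 min) with the exponential curve fitted to all times (solid) and without the 0 min sample (dashed), by replicate. The solid curve passes 21.4 and 16.6 percentage points below the 5 min points and 13.0 and 10.7 above those at 15 min.

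Chromosome III also holds the Rap1 sites of the mating-type loci, which share its libraries: HML-p and MAT-p, the promoters of the silenced and the expressed copy of the alpha genes, and the HML silencers HML-E and HML-I. HIS4 had less left than either promoter from 5 min on. At 5, 10, 15 and 60 min HIS4 kept 83.3%, 37.3%, 11.4% and 4.78%, against 110%, 60.9%, 36.3% and 10.2% at HML-p. The MAT-p window kept 98.7%, 68.4%, 46.5% and 20.9%. At 60 min the silencers kept 19.7% (HML-E) and 11.1% (HML-I). The replicates of HIS4 did not overlap those of either promoter at 15 min, with 11.8% and 11.1% left, against 37.8% and 34.7% for HML-p and 48.6% and 44.5% for MAT-p.

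Within a library, the signal of HIS4 divided by that of HML-p was 0.491 ± 0.0103 at 0 min, 0.155 ± 0.00578 at 15 min, 0.124 ± 0.00343 at 20 min and 0.229 ± 0.0354 at 60 min (SD, n = 2). Divided by that of MAT-p it was 0.832 ± 0.0170 at 0 min, 0.204 ± 0.000273 at 15 min, 0.144 ± 0.00725 at 20 min and 0.189 ± 0.0330 at 60 min. Against both promoters the mean ratio was lowest at 20 min, and it was higher again at 60 min in both replicates.

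In the fitted rates, HIS4 was above HML-p by 0.48 on the natural log scale, with a 95% interval of -0.23 to 1.19 that included 0. Its residence time was 0.619 times the 15.6 min of HML-p (0.304 to 1.26). Against MAT-p, at 17.0 min, the difference was 0.57 (-0.01 to 1.14) and the ratio of residence times 0.568 (0.321 to 1.01). Neither difference passed. By replicate they were 0.418 and 0.541 for HML-p and 0.566 and 0.565 for MAT-p, with the same sign throughout. The intervals come from the standard errors of the fits, with windows of the same library taken as independent. They include the distance of the points from the fitted curves and do not measure the spread between replicates. With the plateau fixed at 0 the interval left out 0 for both promoters, at a difference of 0.58 for HML-p and 0.93 for MAT-p.

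**Figure D5:**
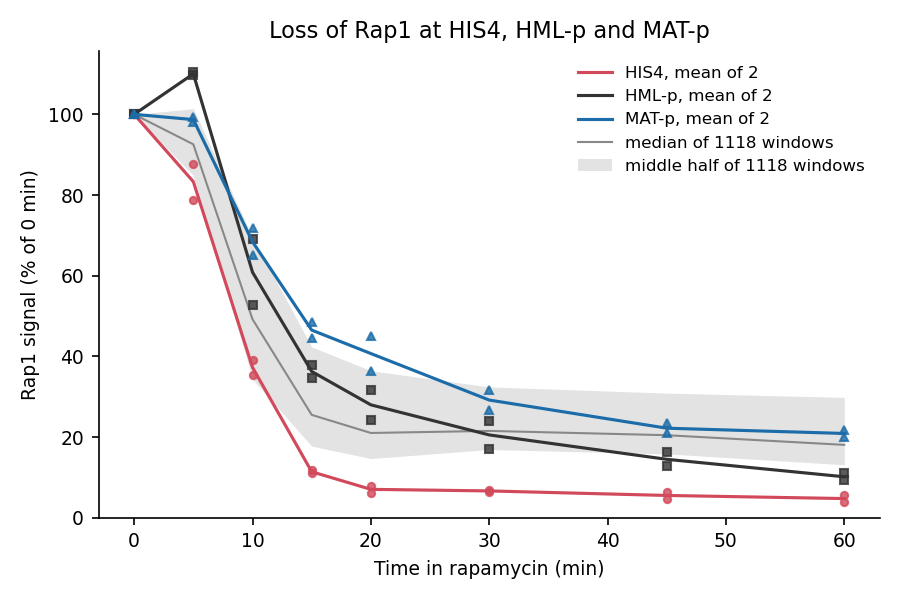
Rap1 signal as percent of the 0 min value against time in rapamycin for HIS4, HML-p and MAT-p (lines, means of 2, points, replicates), with the median and the range from the lower to the upper quartile of 1118 windows (grey). HIS4 lay just below the grey band at 5 min (83.3%), inside it at 10 min (37.3%) and well below it from 15 min on (11.4%).

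The windows with a time course most like that of HIS4, over the 14 values of 7 times and 2 replicates on the log2 scale relative to 0 min, were between genes on chromosome XVI (Euclidean distance 0.547), upstream of TEX1, a gene of the TREX mRNA export complex (0.628), inside YOR343W-A and YOR343W-B (0.688), upstream of LCL2 (0.865) and between genes on chromosome XI (1.01). The median distance over all windows was 5.40. In 0 min signal these windows ran from 0.689 times that of HIS4 at TEX1 to 1.87 times at LCL2. The TEX1 window kept 86.6% at 5 min, 34.3% at 10 min, 11.5% at 15 min and 5.21% at 60 min, and the LCL2 window kept 94.2%, 38.3%, 11.0% and 3.95%.

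On chromosome III, 3 other windows lay within 20 kb of HIS4, none closer than 9672 bp. The window upstream of GFD2 and SRO9, at 9672 bp on the left, had a 0 min signal of 681 and kept 39.5% at 60 min. A window between genes at 10013 bp on the right had 610 and kept 25.1%, and a window on a tRNA gene at 13972 bp had 85.4 and kept 14.3%. All 3 kept more than HIS4 in both replicates.

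Of the other genes of histidine synthesis, only HIS2, which encodes histidinol phosphatase, had a window within 300 bp upstream, so that 2 of 7 genes were represented. Its window also covered a tRNA gene. The HIS2 window had a 0 min signal of 72.8 and 97.5 and kept 11.7% and 14.5% at 60 min in replicates 1 and 2, close to the median of 13.95% over the 239 windows on tRNA genes. The 4 genes of Rap1 and of the activators of HIS4 (GCN4, BAS1, PHO2 and RAP1) and 16 genes of purine and one-carbon metabolism controlled by Bas1 and Pho2 had 0 windows within 300 bp. Of 74 other genes of amino acid synthesis 2 had one.

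These were PRO1, which encodes the first enzyme of proline synthesis (764 at 0 min, 8.89% left), and HOM6, which encodes homoserine dehydrogenase (824 at 0 min, 52.2% left). The log2 change at 60 min was -4.34 at HIS4, against -3.47 at PRO1 and -0.94 at HOM6. Within 500 bp the lists gained GCN4 (30.3% left), ADE8 (17.9%), ADE3 (14.6%), LEU2 (15.6%), MET17 (8.04%), GLY1 (43.5%) and SER1 (63.9%), where the windows at LEU2 and MET17 also covered tRNA genes. The ADE8 window lay within 300 bp upstream of SIZ1, a SUMO ligase gene, and the SER1 window within 300 bp upstream of the ribosomal protein gene RPS30B. The window of each of these genes was called lower at 60 min (limma, adjusted p under the threshold of 0.05, as for 96% of all windows), and none kept as little as HIS4.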

How the data were processed

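Chromatin was immunoprecipitated with an antibody to V5 and sequenced. Per the labels and the study's methods, the authors used CASAVA 2.2, Bowtie2 and SAMtools, aligned to S. paradoxus joined with a modified sacCer3, and called peaks with MACS3. Their deposited signal is the reads within 150 bp of a summit per 1000000 S. paradoxus reads, and their deposited count is the S. paradoxus reads of a library. Multiplied together, 100% of values came within 0.01 of a whole read. Versions other than that of CASAVA are not given in the sources used here. 1 table line that is no window was left out, 14 input columns were not used, and 10 windows have another length than 301 bp. Names came from the R64 annotation, in which 8 tRNA windows of chromosome III had a median offset of 8 bp and the 231 others of 0 bp.

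For the changes, a model of log2(signal + 1) on time, without a replicate term, was fitted to all 16 ChIP libraries in limma 3.58.1 (R 4.3.3), 2-sided, with Benjamini-Hochberg adjustment over 1118 windows and a threshold of 0.05. Decays were fitted by nls with a free plateau, and a window passed when the rate passed in both replicates. Their intervals come from the standard errors of the fits. Python 3.11.15 with pandas 2.3.3, matplotlib 3.10.9, numpy 2.4.6 and scipy 1.17.1 served for the rest. Same-numbered libraries come from the same isolate, so the numbers pair them. Correlations of their deviations over 28 pairs of times ran from -0.208 to 0.408 (median 0.168).

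The named windows were HIS4, the 4 mating-type sites, the 2 on either side of HIS4 in the ranks of signal, residence time and share left, the 5 on either side in signal, the 5 most alike in time course, those within 20 kb, and those near genes of 4 lists. HIS4, the lists and the tests were chosen with earlier results of these data known. The windows below HIS4 in share left or before it in the step from 10 to 15 min were named after their values were seen. On data simulated for 60 against 0 min in 1118 windows, limma called 11 of 50 falls of 0.5 and 42 of 50 falls of 1. It called all 50 of 2 and of 4, and 11 of 918 unchanged windows. The simulated noise was independent and normal, with the same spread in every window and no shift of a whole library. The measured libraries did shift, so these counts do not give the error rate in the measured data. Alternatives were pseudocounts of 0.1 and 5, a signal minimum of 50, a replicate block, scaling to the total over all windows, other forms of the decay fit, a limit of 500 bp and leaving out libraries.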

Additional observations from a re-analysis of the deposited data

How the results depend on the processing

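Under the alternatives tried, 174 values of HIS4 and of the count of windows lower at 60 min kept their direction and their side of the threshold, 9 moved, 8 newly passed, 4 changed sign and 0 were lost. The falls from 0 min at 10, 15, 20, 30, 45 and 60 min passed in each alternative. At 60 min the fall ran from -4.75 to -3.93 when 1 library was left out, and the number of windows lower from 1023 to 1093, against 860 with libraries scaled to their totals. The share left ran from 3.91% to 5.65% and its rank from 6 to 12. With the replicate block, which pairs libraries of an isolate, the change of -0.69 from 15 to 20 min passed (adjusted p = 0.0398), and no other call at HIS4 changed.

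Of the changes that had not passed, 3 turned sign when 1 library was left out: from 20 to 30 min the change ran from -0.27 to 0.13 (without replicate 1 at 30 min), from 45 to 60 min from -0.62 to 0.20 (without replicate 1 at 60 min), and relative to the median window at 5 min from -0.21 to 0.02, with 0.014 without replicate 1 at 0 min and 0.019 without replicate 2 at 5 min. The residence time was 5.02 min without the 0 min samples, 5.72 min with residuals on the log scale and 10.7 min with libraries scaled to their totals, and the ranks were 596 of 967, 360 of 1016 and 421 of 660, and 68 of 1099 with the plateau at 0. The difference in log rate from HML-p then passed at 0.345 without the 0 min samples, 0.784 on the log scale, 1.24 with scaling to totals and 0.584 with the plateau at 0, and that from MAT-p at 0.692 without the 0 min samples, 0.883 on the log scale and 0.931 with the plateau at 0. MAT-p could not be fitted with scaling to totals. That scaling gave 12.6% left and 10.1 min to reach 50%. The causes of these shifts were not tested.

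With 2 isolates the spread at a single window is poorly known, and 136 and 175 reads at 60 min limit how well the share left can be ranked. Signal at 60 min was level with the median window, so that remaining Rap1 and background of the ChIP cannot be told apart there.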
